A study of Rattus norvegicus with 142 samples.

Results

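The 4 genes described here, Gfap (probe set 1368353_AT), Vim (1367574_AT), Timp1 (1367712_AT) and Serpina3n (1368224_AT), are widely used as markers of reactive astrocytes, and were chosen by probe set ID as 4 of the 24249 probe sets on the array. They were followed in hippocampus and cortex of 10-day-old Long-Evans rat pups, 68 of which gave a library of each tissue and 6 of 1 tissue. HS+NBQX pups breathed 5% O2 for 15 min, which induced hypoxic seizures, and then received 4 intraperitoneal injections of NBQX, an antagonist of AMPA and kainate glutamate receptors, over 48 h, the first of them 30 min after hypoxia, so that pups killed before 48 h can have received only some of them. HS pups had the same hypoxia and injections of the DMSO vehicle, and noHS pups stayed in normoxia and received vehicle. Pups were killed 1, 6, 12, 48 or 168 h later, with 4 to 6 pups per treatment and time. Hippocampus gave 23 HS+NBQX, 23 HS and 24 noHS libraries, and cortex gave 24, 23 and 25 libraries of the same groups, 142 in all from 74 pups of 11 litters. Each litter was killed at 1 time only, so that a difference between times is also one between litters, and 1 litter held HS pups alone.

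Astrocytes answer injury, hypoxia and seizures by enlarging their processes and changing their transcripts. Gfap and Vim encode the intermediate filament proteins of the astrocyte cytoskeleton. Gfap marks differentiated astrocytes, whereas Vim is also high in radial glia, immature astrocytes, endothelium and meninges. Timp1 encodes a secreted inhibitor of matrix metalloproteinases, and Serpina3n a secreted inhibitor of serine proteases, and both are known from rodent injury models as strongly inducible in astrocytes. In whole tissue, more cells of a type and more RNA per cell cannot be told apart.

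The sequence before the start of a RefSeq transcript is given for the 3 members whose readings did not lie at the lower limit of the array, Vim and Timp1 being the pair whose intensities ran most alike across libraries. The 250 bases before the start are from the RefSeq annotation of the GRCr8 assembly, in which all 4 genes were matched by symbol. Letters in capitals are matches to the sequences AGGAAG, a core recognised by ETS-family factors, or TATAAA, the TATA box, on either strand. The Gfap stretch is chr10:88361662-88361911 on the minus strand, that of Vim chr17:81577011-81577260 on the plus strand, and that of Timp1 chrX:3771123-3771372 on the minus strand. The Timp1 stretch precedes the start of 1 transcript and lies inside the annotated gene, whose 5' end is farther upstream, whereas the others adjoin the 5' end of their gene.
Gfap: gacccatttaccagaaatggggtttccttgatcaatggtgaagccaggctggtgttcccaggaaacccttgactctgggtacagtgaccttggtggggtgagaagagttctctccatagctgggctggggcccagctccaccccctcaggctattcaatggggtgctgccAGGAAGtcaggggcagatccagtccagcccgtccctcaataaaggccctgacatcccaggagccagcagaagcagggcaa
Vim: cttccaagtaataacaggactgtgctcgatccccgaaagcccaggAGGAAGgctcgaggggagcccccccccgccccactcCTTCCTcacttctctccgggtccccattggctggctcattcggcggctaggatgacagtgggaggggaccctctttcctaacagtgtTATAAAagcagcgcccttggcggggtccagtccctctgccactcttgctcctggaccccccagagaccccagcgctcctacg
Timp1: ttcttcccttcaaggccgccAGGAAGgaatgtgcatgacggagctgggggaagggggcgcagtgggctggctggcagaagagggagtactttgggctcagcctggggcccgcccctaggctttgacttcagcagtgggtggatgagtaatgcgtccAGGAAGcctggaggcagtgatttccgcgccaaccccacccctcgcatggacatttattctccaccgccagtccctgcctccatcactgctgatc
AGGAAG was found at position -80 before the Gfap start, at -205 and, on the other strand, at -169 before that of Vim, and at -230 and -94 before that of Timp1. It occurs in 29.5% of the 33469 RefSeq promoter windows of this length, and TATAAA, found once, at -82 before the Vim start, in 12.9%. The STAT sequence TTCNNNGAA was found only before Serpina3n, as TTCCCAGAA at -123 (chr6:129088142-129088391, plus strand), and occurs in 7.67% of windows, and the AP-1 sequence TGANTCA, found in 6.34% of windows, was in none of the 4. None of the matches overlapped another, and they describe letters, no binding having been measured.

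Each value is the linear array intensity of a probe set, brought by the submitters to a common upper level on each array, with array medians of 63.8 to 79.9. Placed on a line from the mean noHS cortex profile (0) to the mean noHS hippocampus profile (1) by the 280 probe sets that differed most between them, hippocampal libraries lay between 0.70 and 1.15 and cortical libraries between -0.10 and 0.15, so no library sat with the other tissue. The noHS libraries placed on this line also served to draw it. Genes other than the 4 members could not be named from the tables used here, so marker lists for astrocytes and other cell types were not examined. Hippocampal libraries were run on 1 array plate and cortical libraries on a second one, except for 13 libraries of 1 litter killed at 168 h (litter 4), in which the plates were exchanged. On the line between the tissues, the hippocampal libraries of litter 4 lay lowest, at 0.70 to 0.84, against 0.85 to 1.15 in the other litters. Each column of a plate held 1 treatment. On both plates HS+NBQX lay in columns 1 to 3, HS in columns 4 to 6 and noHS in columns 9 to 12. Treatment and place on the plate therefore cannot be told apart.

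Vim and Gfap were bright and Timp1 intermediate, whereas the Serpina3n probe set was close to the bottom of the array. Over all 142 libraries the intensity of Vim ran from 1080 to 2830 with a median of 1705, and that of Gfap from 573 to 1650 with a median of 984. Timp1 ran from 28.7 to 144 with a median of 62.2, and Serpina3n from 0 to 6.56 with a median of 0.38. Only 18 of 24249 probe sets had a lower mean log2 intensity than Serpina3n, against 11815 for Timp1. Timp1 was above its library's own median in 56 of 142 libraries, and Gfap and Vim in all 142. Serpina3n was under 1 in 113 libraries and under the library's own median in all 142, and averaged 0.48 ± 0.58 in noHS hippocampus (SD, n = 24). Its readings are therefore close to the lower limit of the array, and its log2 differences are differences between such readings.

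**Figure D1:**
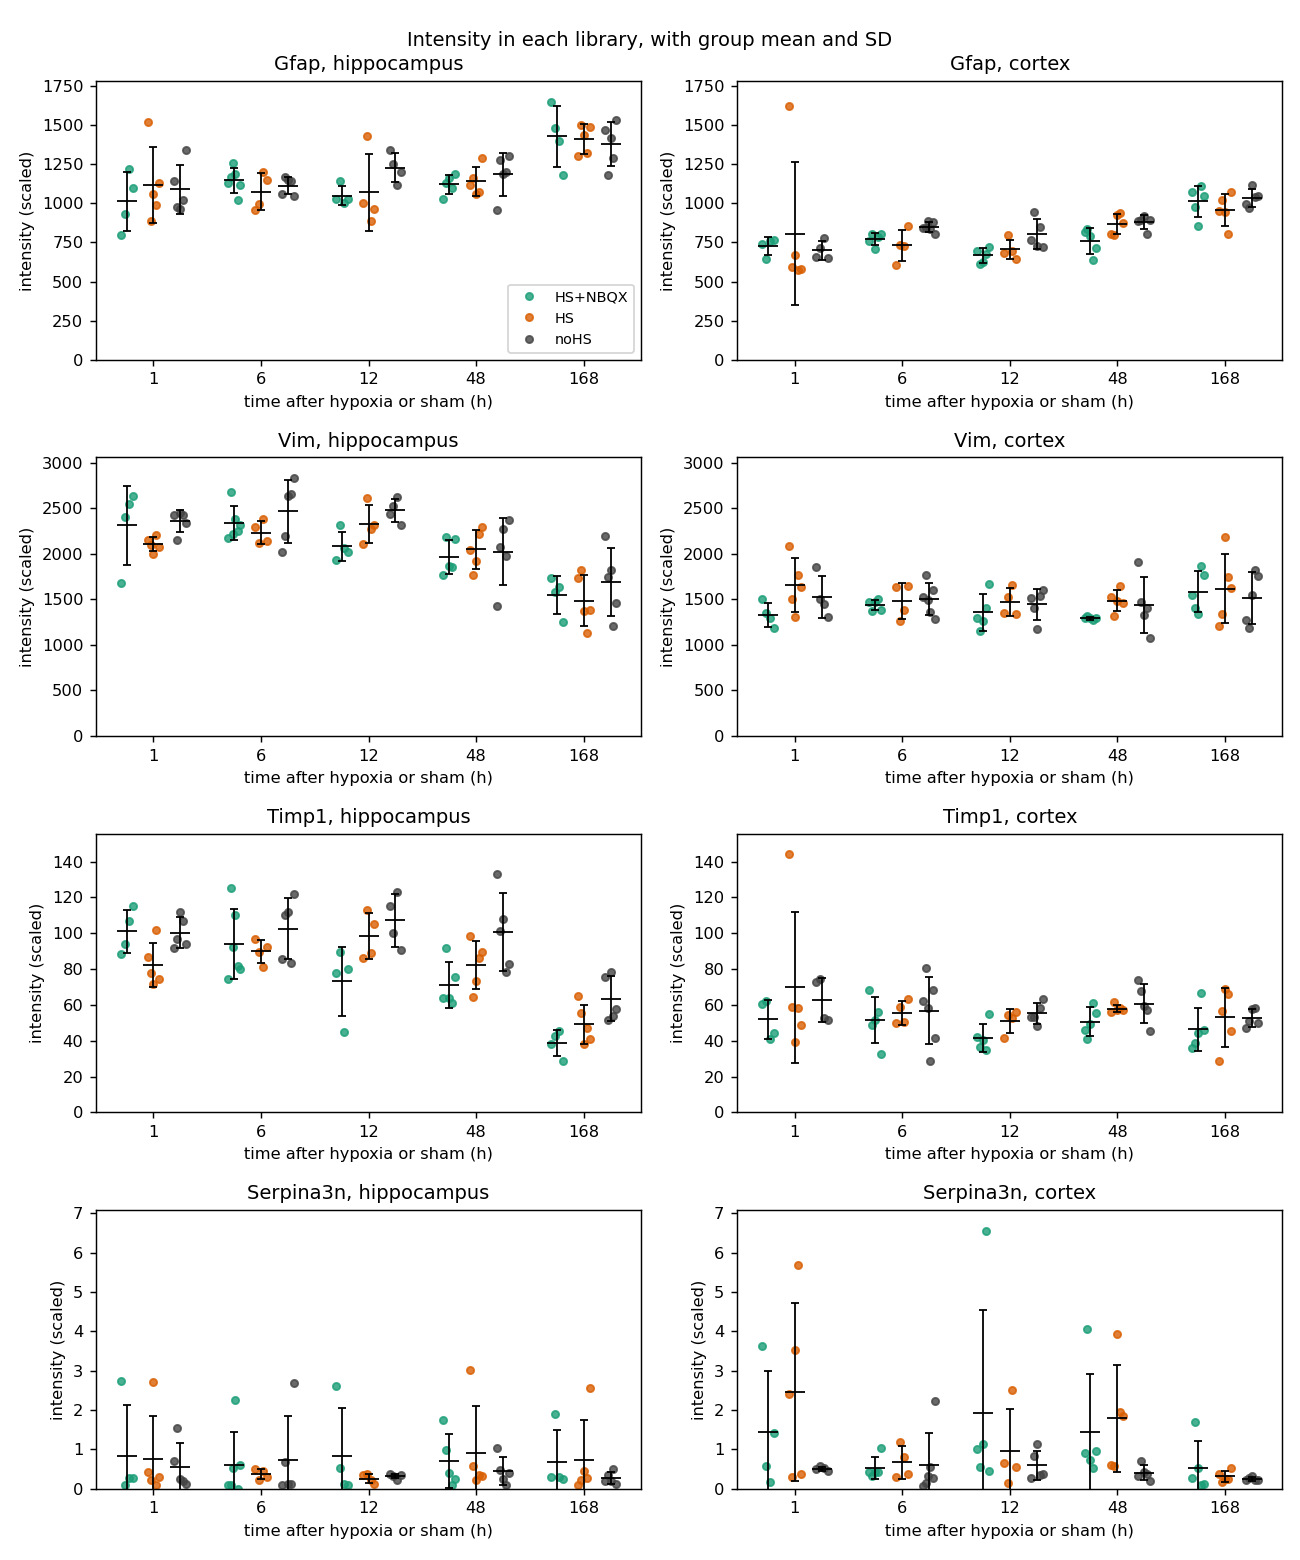
Intensity of each member (rows) in hippocampus (left) and cortex (right) against time in hours, 1 point per library, with the group mean and SD in black; HS+NBQX, HS and noHS stand side by side at each time. Gfap is higher at 168 h than at 1 h in both tissues, Timp1 is lowest at 168 h in hippocampus, and 1 cortical HS library at 1 h stands at 1620 for Gfap and 144 for Timp1.

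Between the tissues, Gfap was higher in hippocampus than in cortex. In noHS pups, hippocampal Gfap ran from 955 to 1530 with a median of 1185, and cortical Gfap from 648 to 1120 with a median of 851. The log2 difference averaged over the 5 times was 0.49 (SE 0.038, 1.41-fold, adjusted p = 2.1e-15, limma), where 51.8% of all probe sets passed the same test. It passed at each single time, with log2 differences between 0.39 and 0.63. Vim (log2 difference 0.55, SE 0.062, adjusted p = 2.4e-10) and Timp1 (0.71, SE 0.082, adjusted p = 6.3e-10) also passed over the 5 times, and at each of 1, 6, 12 and 48 h, but not at 168 h, where the log2 difference was 0.15 for Vim (adjusted p = 0.63) and 0.25 for Timp1 (adjusted p = 0.50). The shares of all probe sets passing at single times were 20.4% at 1 h, 19.7% at 6 h, 22.4% at 12 h, 28.1% at 48 h and 8.91% at 168 h. Most pups gave both tissues, and this fit did not pair them.

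The litter with exchanged plates separated Gfap from Vim and Timp1. In the 10 litters with hippocampus on plate 1 and cortex on plate 2, Vim was higher in hippocampus in 61 of 62 pups with both tissues, with litter means of the log2 difference between 0.33 and 0.88. In litter 4, with hippocampus on plate 2 and cortex on plate 1, Vim was lower in hippocampus in 6 of 6 pups, with a mean log2 difference of -0.48. In that litter hippocampal Vim ran from 1130 to 1460 (n = 6) and cortical Vim from 1620 to 2180 (n = 7), whereas in the other 168 h litter hippocampal Vim ran from 1580 to 2190 and cortical Vim from 1180 to 1550 (n = 8 each). Within each litter the 2 tissues did not overlap, and their order was opposite. Vim was thus higher in the tissue on plate 1 in each of the 11 litters.

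Timp1 followed the same pattern with more overlap. It was higher in hippocampus in 59 of 62 pups of the 10 litters and in 1 of 6 pups of litter 4, where its mean log2 difference was -0.34. Hippocampal Timp1 in litter 4 ran from 28.9 to 57.7 and cortical Timp1 from 45.3 to 68.9, against 38.2 to 78.2 in hippocampus and 28.8 to 57.8 in cortex of the other 168 h litter. Gfap kept the order of the tissues, being higher in hippocampus in 61 of 62 pups and in 6 of 6 pups of litter 4, with a mean log2 difference of 0.47 in that litter and between 0.40 and 0.87 in the others. Across the array, 2088 of the brighter probe sets differed by over 0.5 on the log2 scale between the noHS tissues over 1 to 48 h. Of these, 46.2% kept their sign in the noHS pups of litter 4 and 97.8% in the noHS pups of the other 168 h litter. Of the 334 that differed by over 1, the shares were 74.6% in litter 4 and 98.2% in the other litter. Without litter 4, Vim was higher in noHS hippocampus at 168 h by the test (log2 difference 0.53, adjusted p = 0.014). With plate as a factor, the log2 difference between the tissues was 0.51 for Gfap (adjusted p = 7.0e-06), 0.15 for Vim (adjusted p = 0.53) and 0.57 for Timp1 (adjusted p = 0.031), and neither Vim nor Timp1 then passed at any single time (adjusted p = 0.085 to 0.34 for Timp1 at 1 to 48 h). Outside litter 4, tissue and plate cannot be told apart, and in litter 4 the plate cannot be told apart from the litter. Treatment comparisons within a litter and tissue lay on 1 plate, but in different columns of it.

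**Figure D2:**
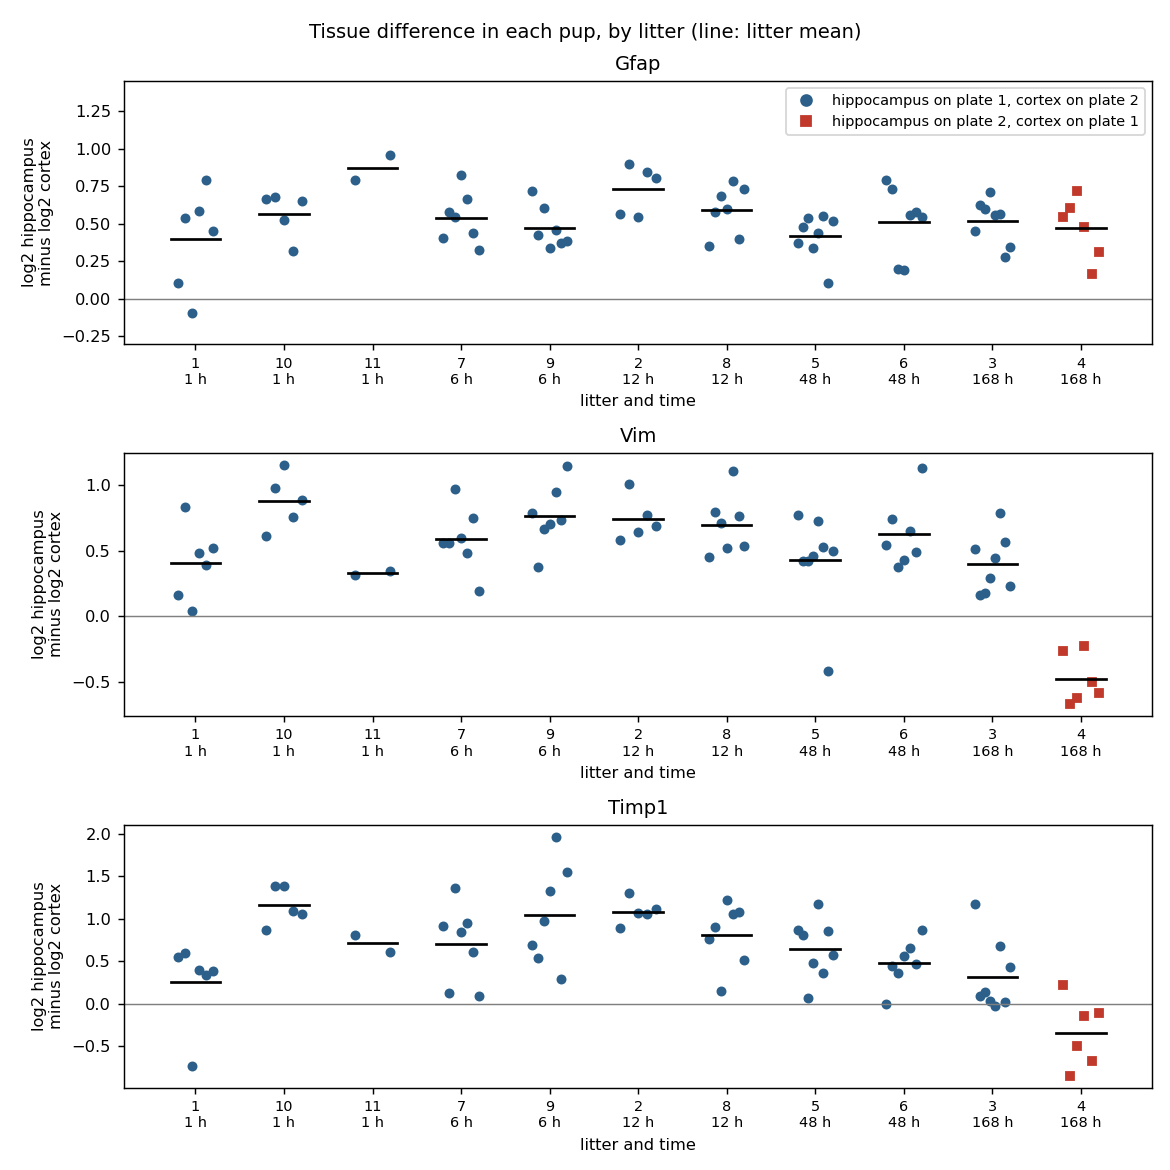
Log2 intensity in hippocampus minus that in cortex for each of 68 pups, by litter and time, with the litter mean as a line; red squares mark the litter with exchanged plates. Gfap is above 0 in all but 1 pup, whereas for Vim the 6 pups of litter 4 lie below 0, between -0.67 and -0.23, and 61 of the other 62 above it.

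The normoxic pups trace the members over 1 week of maturation, each time being set against 1 h. Each time held 2 litters that no other time shared, and the fit took no account of litter. Gfap rose in both tissues. In cortex, noHS Gfap was 994, 973, 1120, 1040 and 1050 at 168 h, against 658, 714, 776 and 648 at 1 h. Every cortical library at 168 h was above every one at 1 h, and the log2 difference was 0.57 (SE 0.074, 1.48-fold, adjusted p = 1.2e-06), where 25.8% of all probe sets passed. Cortical Gfap already passed at 48 h, when it was 887, 895, 919, 802 and 891 (log2 difference 0.33, adjusted p = 0.013), where 2.86% of all probe sets passed. The 48 h call was lost without noHS 1 h replicate 1 (log2 difference 0.30, adjusted p = 0.057) or replicate 4 (0.30, adjusted p = 0.074), with plate column as a random block (0.33, adjusted p = 0.056) and by the methods' t-test with Benjamini-Hochberg adjustment (adjusted p = 0.074). In hippocampus, noHS Gfap was 1470, 1180, 1420, 1290 and 1530 at 168 h, against 1140, 977, 966, 1020 and 1340 at 1 h. These ranges overlapped, and the log2 difference was 0.35 (SE 0.097, adjusted p = 0.013), where 17.3% of all probe sets passed. At 48 h no member passed in hippocampus, and 0.0619% of all probe sets did.

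Vim and Timp1 fell in noHS hippocampus over the same week. Vim was 2190, 1750, 1820, 1210 and 1460 at 168 h, against 2420, 2150, 2450, 2420 and 2340 at 1 h (log2 difference -0.51, SE 0.13, adjusted p = 0.0071). Timp1 was 75.7, 51.6, 78.2, 53.8 and 57.7 at 168 h, against 91.8, 97.0, 112, 107 and 93.9 at 1 h (log2 difference -0.68, SE 0.16, adjusted p = 0.0025). All 5 Timp1 values at 168 h were below all 5 at 1 h, and for Vim only replicate 1 at 168 h was within the 1 h range. The 2 lowest Vim values, of replicates 4 and 5, belong to litter 4, with hippocampus on the plate of the other tissue. Without that litter the log2 differences were -0.57 for Timp1 (adjusted p = 0.042), -0.30 for Vim (adjusted p = 0.16) and 0.32 for Gfap (adjusted p = 0.067), so the calls of Vim and Gfap were lost. In noHS cortex neither Vim nor Timp1 changed by the test, with log2 differences of -0.02 for Vim (adjusted p = 0.94) and -0.24 for Timp1 (adjusted p = 0.47). These cortical differences include litter 4. Mean log2 Vim in noHS cortex at 168 h was 10.81 in litter 4 and 10.37 in the other litter, against 10.57 at 1 h. With litter 4 included, the change over the week was not shown to differ between the tissues for Vim (difference of the changes -0.49, adjusted p = 0.24), Timp1 (-0.44, adjusted p = 0.45) or Gfap (-0.22, adjusted p = 0.40).

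After hypoxic seizures alone, Timp1 was lower in hippocampus by the test over all times, and no member passed as higher in either tissue. Averaged over the 5 times, 1 of the 4 members passed in hippocampus, Timp1, with a log2 difference of HS from noHS of -0.25 (SE 0.070, 95% interval -0.39 to -0.11, 0.84-fold, adjusted p = 0.0077), where 21.5% of all probe sets passed, 2818 higher and 2402 lower. The median log2 difference was -0.08 over the 4 members and -0.01 over all probe sets. At 1 h Timp1 was 86.6, 77.6, 71.7, 102 and 74.3 in HS hippocampus, against 91.8, 97.0, 112, 107 and 93.9 in noHS hippocampus, so that 4 of 5 HS values lay below all noHS values. The value of 74.3, and that of 102, came from the litter that held HS pups alone. At 168 h it was 64.9, 55.3, 38.3, 46.9 and 41.0 in HS and 75.7, 51.6, 78.2, 53.8 and 57.7 in noHS hippocampus, with overlapping ranges. The group means of HS lay below those of noHS at all 5 times, by -0.37 to -0.12 on the log2 scale, but no single time passed (adjusted p = 0.24 to 0.84), and the treatment-by-time terms did not pass for Timp1 (F test, adjusted p = 1.00). The shares of all probe sets passing at single times were 2.02% at 1 h, 0.598% at 6 h, 3.27% at 12 h, 3.67% at 48 h and 2.40% at 168 h.

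Within litters, HS pups had a lower mean hippocampal Timp1 than their noHS littermates in 9 of 10 litters, with log2 differences between -0.54 and 0.03. The log2 ratio of 3' to 5' signal of the control transcripts, a measure of RNA integrity, also differed between these groups, at 1.73 ± 0.11 in HS and 1.84 ± 0.13 in noHS hippocampus (SD, n = 23 and 24), and with it as a covariate the Timp1 difference was -0.28 (adjusted p = 0.011). With plate column as a random block the difference was unchanged in size, at -0.25, but did not pass (adjusted p = 0.054). For Gfap and Vim the log2 differences of HS from noHS hippocampus were -0.05 (95% interval -0.16 to 0.05, adjusted p = 0.52) and -0.11 (-0.22 to 0.01, adjusted p = 0.18). Hippocampal Gfap ran from 885 to 1520 with a median of 1130 in HS pups and from 955 to 1530 with a median of 1185 in noHS pups.

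In cortex, the HS comparison of Gfap turned on 1 library. At 1 h Gfap was 1620, 591, 668, 573 and 583 in HS cortex, against 658, 714, 776 and 648 in noHS cortex: replicate 1 of HS was above every noHS value, replicate 3 was within their range, and the other 3 were below every one. Of these 3, replicates 4 and 5 came from the litter that held HS pups alone. Over all times no member passed in cortex, with a log2 difference of HS from noHS of -0.09 for Gfap (95% interval -0.23 to 0.04, adjusted p = 0.31), 0.05 for Vim (adjusted p = 0.57) and -0.03 for Timp1 (adjusted p = 0.86), where 29.1% of all probe sets passed, 3169 higher and 3893 lower. The medians were 0.01 over the 4 members and -0.02 over all probe sets. Without HS 1 h replicate 1, Gfap was lower in HS cortex by the test, with a log2 difference of -0.15 (adjusted p = 0.0013). With all libraries kept, the mean Gfap of HS pups was below that of noHS littermates in 8 of 10 litters. Under 20 settings other than leaving out 1 library, the Gfap difference lay between -0.14 and -0.02. The upper quartile of the log2 values of an array was 8.21 ± 0.040 in HS and 8.26 ± 0.031 in noHS cortex (SD, n = 23 and 25). The difference of -0.15 was not recomputed with this measure as a covariate. No member passed at a single time in cortex, where 6.37% of all probe sets passed at 1 h, 4.28% at 6 h, 5.54% at 12 h, 3.58% at 48 h and 4.61% at 168 h.

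That library was high in Timp1 too, at 144 against 39.3 to 59.0 in the other 4 HS cortices at 1 h, and in Vim, at 2090 against 1310 to 1770. Among 14516 of the brighter probe sets, 15 stood over 2-fold above all 4 other libraries of the group in this one, compared with 0 to 6 in each of the others, and 8 of them had a wider gap than Gfap. On the line between the tissues it lay at 0.06, within the range of cortex. The hippocampus of the same pup had the highest Gfap of its group, at 1520 against 888 to 1130 in the other 4, while its Timp1, 86.6, was within the range of its group. What set this pup apart was not tested.

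No member passed the test between HS+NBQX and HS pups in either tissue. Averaged over the 5 times, the log2 differences of HS+NBQX from HS in hippocampus were -0.01 for Gfap (95% interval -0.12 to 0.09), 0.01 for Vim (-0.09 to 0.10) and -0.13 for Timp1 (-0.29 to 0.02), with adjusted p of 0.95, 0.97 and 0.41, where 4.22% of all probe sets passed. In cortex they were -0.03 for Gfap (-0.16 to 0.11), -0.13 for Vim (-0.24 to -0.03) and -0.22 for Timp1 (-0.44 to -0.01), with adjusted p of 0.89, 0.15 and 0.27, where 2.68% passed. Of the probe sets passing in cortex, 113 were higher and 536 lower. The median log2 difference in cortex was -0.11 over the 4 members and -0.03 over all probe sets. The upper quartile of the log2 values of an array was 8.18 ± 0.049 in HS+NBQX and 8.21 ± 0.040 in HS cortex (SD, n = 24 and 23). The group mean of HS+NBQX cortex was below that of HS cortex at all 5 times for Vim and for Timp1. Within litters, cortical Vim was lower in HS+NBQX than in HS pups in 9 of 10 litters (median log2 difference -0.08), and cortical Timp1 in 7 of 10 (median -0.18). For Timp1, HS+NBQX cortex ran from 32.7 to 68.6 with a median of 46.1 and HS cortex from 28.8 to 144 with a median of 56.4.

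Against normoxic pups, HS+NBQX pups had less Timp1 in both tissues and less Gfap in cortex by the test over all times. This comparison and that of HS share the noHS libraries, so the 2 are not independent. In hippocampus Timp1 was the 1 member of 4 that passed, with a log2 difference from noHS of -0.38 (SE 0.079, 95% interval -0.54 to -0.22, 0.77-fold, adjusted p = 0.00014), where 30.5% of all probe sets passed. It was lower than in noHS littermates in 9 of 10 litters, with log2 differences between -0.95 and 0.09. The 3' to 5' ratio was 1.66 ± 0.15 in HS+NBQX and 1.84 ± 0.13 in noHS hippocampus (SD, n = 23 and 24), and the Timp1 difference with it as a covariate was -0.43 (adjusted p = 0.0015).

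By time, the difference passed at 12 h and at 168 h. At 1 h Timp1 was 88.3, 93.9, 107 and 115 in HS+NBQX hippocampus, against 91.8, 97.0, 112, 107 and 93.9 in noHS hippocampus, and the groups overlapped (log2 difference 0.01). At 12 h it was 77.9, 89.3, 44.9 and 80.2 in HS+NBQX and 115, 100, 123 and 90.6 in noHS hippocampus, the groups not overlapping (log2 difference -0.59, SE 0.19, adjusted p = 0.042). At 48 h it was 63.8, 91.8, 63.6, 61.1 and 75.4 in HS+NBQX and 133, 101, 108, 78.6 and 82.9 in noHS hippocampus, with 4 of 5 HS+NBQX values below all noHS values (log2 difference -0.49, adjusted p = 0.053). At 168 h, after the end of dosing, HS+NBQX values of 38.2, 42.7, 45.3 and 28.9 lay below all noHS values of 75.7, 51.6, 78.2, 53.8 and 57.7 (log2 difference -0.71, SE 0.18, 0.61-fold, adjusted p = 0.011). The treatment-by-time terms did not pass for Timp1 (F test, unadjusted p = 0.029, adjusted p = 0.80), so the difference was not shown to change with time.

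The shares of all probe sets passing in this hippocampal comparison were 6.09% at 1 h, 5.04% at 6 h, 8.44% at 12 h, 10.3% at 48 h and 4.68% at 168 h. The 12 h call of Timp1 was lost without noHS 12 h replicate 1, 2 or 3 (adjusted p = 0.12, 0.054 and 0.12) or HS+NBQX 12 h replicate 1 or 3 (adjusted p = 0.051 and 0.27), and without the last of these, the library at 44.9, the log2 difference was -0.37. The 168 h call was lost without HS+NBQX 168 h replicate 4 (log2 difference -0.57, adjusted p = 0.076), the 1 HS+NBQX hippocampus of litter 4, and without all of litter 4 (-0.68, adjusted p = 0.074). With plate column as a random block the 12 h difference did not pass (-0.59, adjusted p = 0.091), and by the methods' t-test neither did (adjusted p = 0.23 at 12 h and 0.15 at 168 h). The 12 h hippocampal Vim values of 1930, 2310, 2060 and 2020 in HS+NBQX pups lay below all noHS values of 2440, 2520, 2620 and 2320, without passing the test (log2 difference -0.25, adjusted p = 0.30). The share of all probe sets whose groups did not overlap is not given here, so the lack of overlap in Vim and Timp1 is a description only.

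In cortex, Gfap (log2 difference of HS+NBQX from noHS -0.12, SE 0.034, 0.92-fold, adjusted p = 0.0038) and Timp1 (-0.25, SE 0.092, 0.84-fold, adjusted p = 0.024) were lower, where 39.0% of all probe sets passed, 3470 higher and 5997 lower. The median log2 difference was -0.10 over the 4 members and -0.05 over all probe sets. Cortical Gfap at 12 h was 695, 613, 623, 679 and 724 in HS+NBQX pups, against 768, 946, 727, 851 and 722 in noHS pups, all but 1 of the HS+NBQX values lying below all noHS values (log2 difference -0.26, SE 0.075, adjusted p = 0.0088). At 48 h it was 816, 834, 790, 637 and 716 in HS+NBQX and 887, 895, 919, 802 and 891 in noHS cortex (log2 difference -0.22, adjusted p = 0.053), and at 168 h the log2 difference was -0.04. The shares of all probe sets passing were 8.61% at 1 h, 12.1% at 6 h, 20.9% at 12 h, 9.89% at 48 h and 5.63% at 168 h. The 12 h call was lost without noHS 12 h replicate 2, the library at 946 (log2 difference -0.20, adjusted p = 0.054). It was also lost with the upper quartile of the array as a covariate (-0.11, adjusted p = 0.61), after quantile normalization (-0.17, adjusted p = 0.12), with plate column as a random block (-0.24, adjusted p = 0.10), with all 3 treatments in one fit (adjusted p = 0.14) and by the methods' t-test (adjusted p = 0.081).

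The calls of Gfap and Timp1 over the 5 times were also lost under some settings. Gfap was lower than in noHS littermates in 7 of 10 litters and Timp1 in 8 of 10. The upper quartile of the log2 values of an array differed between these groups, at 8.18 ± 0.049 in HS+NBQX and 8.26 ± 0.031 in noHS cortex (SD, n = 24 and 25). With it as a covariate the differences were -0.03 for Gfap (adjusted p = 0.73) and -0.19 for Timp1 (adjusted p = 0.41), and after quantile normalization that of Gfap was -0.07 (adjusted p = 0.11). The part of this array measure in the result was otherwise not tested.

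**Figure D3:**
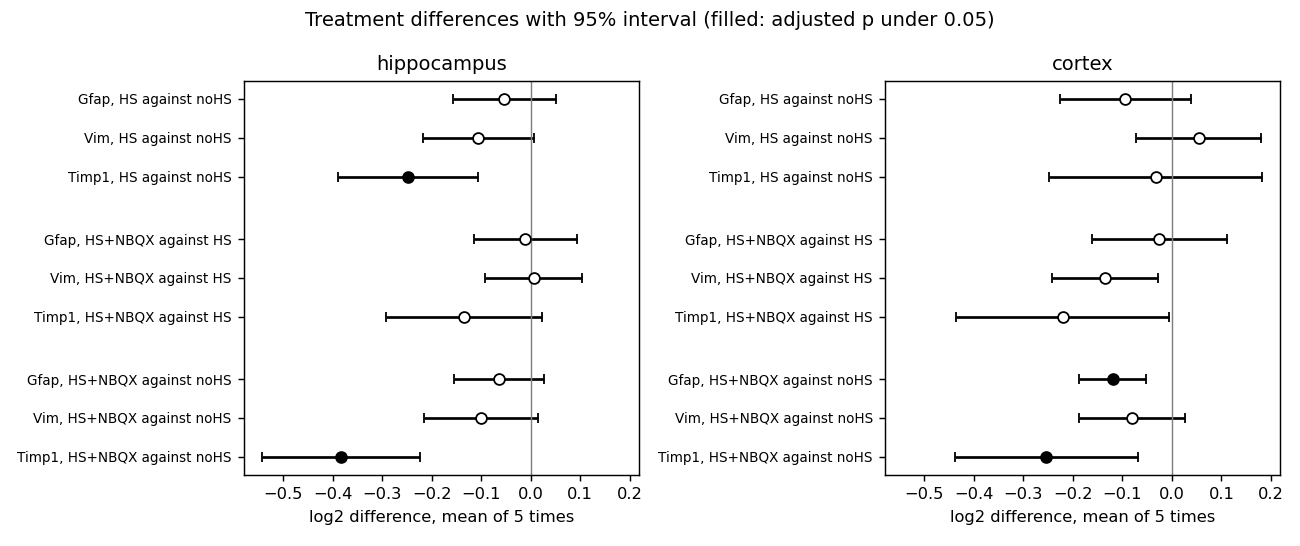
Log2 difference of the 3 treatment comparisons averaged over 5 times, in hippocampus (left) and cortex (right), with 95% intervals; filled points have an adjusted p under 0.05. Timp1 is below 0 against noHS in HS and HS+NBQX hippocampus (-0.25 and -0.38) and in HS+NBQX cortex (-0.25), Gfap in HS+NBQX cortex (-0.12), and all 3 intervals of HS+NBQX against HS in hippocampus include 0.

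**Figure D4:**
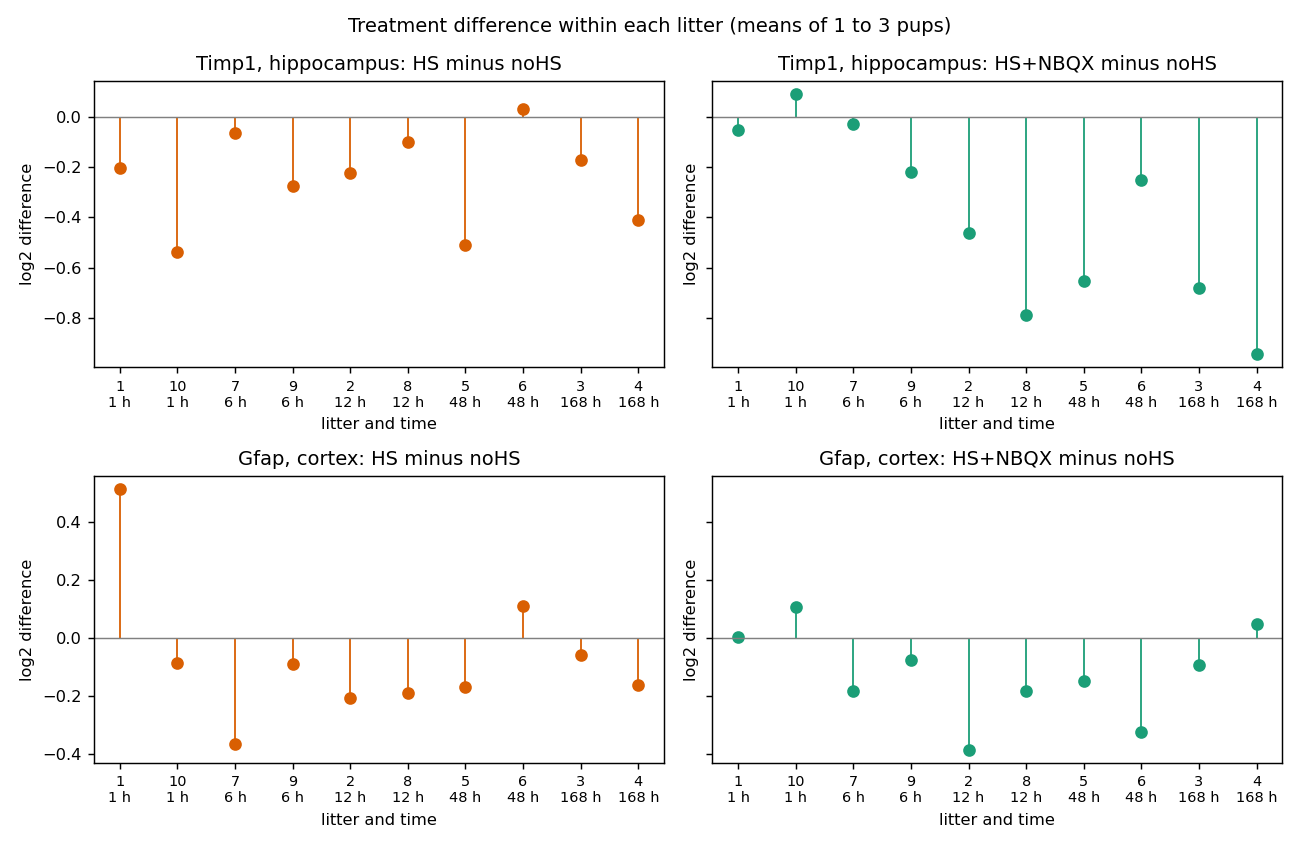
Log2 difference from noHS littermates within each litter, for Timp1 in hippocampus (top) and Gfap in cortex (bottom), with HS in the left panels and HS+NBQX in the right panels. Hippocampal Timp1 is below 0 in 9 of 10 litters in both panels, and cortical Gfap in 8 of 10 for HS and 7 of 10 for HS+NBQX, with litter 1 at 0.51 for HS.

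The response to hypoxic seizures was not shown to differ between the tissues. The difference between the hippocampal and the cortical log2 difference of HS from noHS was -0.22 for Timp1 (95% interval -0.47 to 0.04, adjusted p = 0.60), -0.16 for Vim (adjusted p = 0.55) and 0.04 for Gfap (adjusted p = 0.92), where 0.0907% of all probe sets passed. Nor did any member pass for a slope on the number of seizures counted during hypoxia. Gfap had a slope of -0.02 on the log2 scale per seizure in hippocampus (95% interval -0.04 to 0.003) and -0.03 in cortex (-0.05 to -0.003), with unadjusted intervals, and the adjusted p of all 4 members was 1.00 in hippocampus and 0.998 in cortex. Over the array 0 probe sets passed in either tissue (limma), with 934 in hippocampus and 1135 in cortex at an unadjusted p under 0.05.

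Serpina3n readings were highest in single cortical libraries of hypoxic pups. In cortex they ran from 0.09 to 6.56 with a median of 0.56 in HS+NBQX, from 0.15 to 5.70 with a median of 0.59 in HS and from 0.08 to 2.23 with a median of 0.35 in noHS pups. In hippocampus the medians were 0.30 in HS+NBQX, 0.33 in HS and 0.30 in noHS pups. The cortical differences on the log2 scale were 0.94 (95% interval 0.17 to 1.71, adjusted p = 0.059) for HS and 0.85 (0.05 to 1.64, adjusted p = 0.085) for HS+NBQX against noHS, and neither passed. Nor did Serpina3n pass between hippocampus and cortex of noHS pups (log2 difference -0.28, adjusted p = 0.59), between times or between HS+NBQX and HS. With a pseudocount of 32 added to every intensity the cortical differences of HS and of HS+NBQX from noHS were both 0.03, since the readings lie far under that constant. With so few units of intensity, no presence or change of the transcript was read from this probe set.

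Among themselves, the members were most alike in the pair Vim and Timp1. Over the 142 libraries the Pearson correlation of their log2 intensities was 0.82, the highest that Timp1 had with any of the brighter probe sets, and the points share tissue, plate, time and treatment. Gfap correlated less with Vim (0.52) and Timp1 (0.38). After the mean of each group of tissue, treatment and time was taken off, Vim and Timp1 still correlated at 0.43 over 70 hippocampal and 0.64 over 72 cortical libraries, Gfap and Vim at 0.43 and 0.28, and Gfap and Timp1 at 0.14 and 0.37, the last falling to 0.06 without the 2 libraries farthest out in Gfap. The probe set most like Gfap was 1373850_AT (0.84) and that most like Vim was 1399158_A_AT (0.88), neither of which could be named, while the highest correlation of Serpina3n was 0.42.

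Whether the pups' own deviations were shared by both tissues was examined in the 68 pups that gave both. The permutations exchanged all pups freely, so their p takes no account of litter or plate. The correlations with litter means also taken off were not tested. For Vim, pups high in hippocampus for their group were low in cortex, with a Pearson r of -0.53 (permutation p = 2.0e-05, the smallest these permutations can give, adjusted over the 4 members 8.0e-05) and a Spearman rho of -0.45 (permutation p = 0.00022, adjusted 0.00088). Without the 2 pups farthest from the median r was -0.44. At 168 h, where the 2 litters had opposite plates, r was -0.74 over 14 pups (rho -0.78), and at the other times it lay between -0.58 and -0.15. The r of -0.58 was that of 15 pups at 48 h, where rho was -0.23. In 1 noHS pup at 48 h hippocampal Vim, at 1430, was the lowest of its group and cortical Vim, at 1910, the highest. With litter means also taken off, r over all pups was -0.23. For Gfap, r was 0.45 (permutation p = 0.00078, adjusted 0.0016) with a rho of 0.23 (permutation p = 0.057, adjusted 0.11). With litter means also taken off it was 0.53 (rho 0.16). With group means alone taken off, r was 0.26 without the pup of the high cortical library and 0.20 without the 2 pups farthest out, so this relation rests on those pups. Within times, r of Gfap ran from -0.14 at 48 h to 0.67 at 1 h. Timp1 (r = -0.18, permutation p = 0.14; rho = -0.21, permutation p = 0.081) and Serpina3n (r = 0.17, permutation p = 0.17; rho = 0.10, permutation p = 0.44) showed no such relation past the threshold after adjustment over the 4 members (0.17 for both r, 0.11 and 0.44 for rho).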

How the data were processed

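Hippocampus and cortex RNA of 142 libraries was profiled on 2 high-throughput rat expression array plates. The deposited values are probe set intensities on a linear scale, which the authors made with the MAS5 algorithm and rescaled so that the 75th percentile of present calls was common to all arrays. They left out 2 further scans as a possible exchange of tissues. Which MAS5 version they ran was not given in the sources used here. Plate positions came from the study's design table.

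Intensities at or below 0 (97 values) were raised to the lowest positive one, 0.0526, before log2 values were fitted with limma 3.58.1 in R 4.3.3, with 1 mean per tissue, treatment and time, eBayes with trend and Benjamini-Hochberg adjustment over all 24249 probe sets at a threshold of 0.05. The treatment contrast averaged the 5 time differences with equal weight, and replicates within a group were separate pups. Comparisons between the tissues used both tissues of most pups, and their main fit did not pair them. With animal as a random block, no call of Gfap, Vim or Timp1 between the tissues changed. Permutation tests were two-sided with 100000 resamples (scipy 1.17.1). The fit was tested on simulated data.

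The 4 members, the gene lists and the tests were chosen with earlier results of these data known. Members are always named; for each, the 5 probe sets most highly correlated with it were found among those at or over the 40th percentile of mean log2 intensity, and the first is given by ID. Gene lists could not be matched to probe sets and were not used. Alternatives covered scaling, a pseudocount of 32, dim probe sets, the variance prior, array weights, blocks for replicate number, litter, animal, plate and plate column, 2 covariates, single times, single libraries and the methods' own tests. Same-numbered libraries of different treatments correlated in their deviations from the group means with medians between -0.03 and 0.09, so the numbers did not pair them.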

Additional observations from a re-analysis of the deposited data

Results flagged for a closer look

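In 5 of the 120 groups of 4 to 6 libraries examined, 1 library stood far from the others in a member's log2 intensity by Dixon's criterion, which chance meets in about 1 of 20 groups. Cortical Gfap of HS 1 h replicate 1 was 1620, against 573 to 668 in the other 4. Hippocampal Gfap of noHS 48 h replicate 1 was 955, against 1190 to 1300, and cortical Gfap of noHS 48 h replicate 4 was 802, against 887 to 919. Serpina3n was 1.89 in hippocampal HS+NBQX 168 h replicate 2, against 0.25 to 0.31, and 1.04 in cortical HS+NBQX 6 h replicate 5, against 0.32 to 0.44, all readings near the lower limit of the array.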

How the results depend on the processing

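Of 836 member values recomputed under settings other than leaving out 1 library, 766 kept their direction and their side of the threshold, as did 2389 of 2431 with 1 library left out. The 836 include correlations between the tissues of a pup, which counted as kept when r moved little, with no threshold applied. Hippocampal Timp1 against noHS passed in HS+NBQX pups under all 20 settings other than leaving out 1 library, with log2 differences from -0.48 to -0.26, and without each of 47 libraries. The number of members called in HS hippocampus, 1, was 2 with array weights or the methods' ANOVA at its own threshold (Vim joining) and 0 with plate column as a random block. That of HS+NBQX against noHS hippocampus was 2 with the methods' form of ANOVA at an adjusted p under 0.25. The methods gave no ANOVA of HS+NBQX against noHS. In HS cortex, 0 became 1 without 1 h (Gfap, -0.14), with eBayes without trend, the replicate block or the methods' ANOVA (Serpina3n, 0.94 to 1.04), and ranged from 0 to 1 with 1 library left out: Gfap joined without HS 1 h replicate 1, and Serpina3n, from 1.00 to 1.07, without noHS 6 h replicate 6, noHS 12 h replicate 3, HS 1 h replicate 2 or 5, HS 6 h replicate 1, HS 12 h replicate 2 or HS 48 h replicate 1 or 2. In HS+NBQX against HS cortex, 0 became 1 with array weights (Vim, -0.16) or the methods' ANOVA at an adjusted p under 0.25 (Vim, -0.13). For that comparison the methods themselves set a threshold on the unadjusted p. In HS+NBQX against noHS cortex, 2 became 1 after quantile normalization, with all 3 treatments in one fit, or without 1 h or 48 h, and 0 with plate column as a random block, the upper quartile as a covariate or without 12 h. Serpina3n joined there, from 0.85 to 1.04, with eBayes without trend, array weights, the replicate block or without the litter on the other plate. By the methods' form of ANOVA at an adjusted p under 0.25 it joined at 0.85. It also joined without noHS 6 h replicate 6 (0.96) or HS+NBQX 1 h replicate 3 (1.00). Over the week in noHS hippocampus, 3 became 1 without the litter on the other plate or by the methods' t-test, and in cortex 1 became 2 by that test. The causes were not tested.

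Values near 0 that were never called changed sign. Gfap of HS+NBQX against HS hippocampus was 0.046 with the 3' to 5' ratio, 0.0091 without the litter on the other plate and 0.021 without 1 h, and ran from -0.030 to 0.019 with 1 library left out. Vim there was -0.014 with a common median, -0.0041 with plate column, -0.030 without the litter on the other plate, -0.024 with the litter block, and -0.022, -0.0084 and -0.011 without 1, 6 and 168 h, with -0.013 to 0.035 for single libraries. Cortical Gfap of HS+NBQX against HS was 0.0049 after quantile normalization, 0.0095 with a common median, 0.050 with the upper quartile and 0.018 without 48 h (-0.043 to 0.032). Cortical Timp1 of HS was 0.17 with the upper quartile (-0.093 to 0.0083), and cortical Vim over the week 0.080 with a common median (-0.092 to 0.076).

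With the replicate number as a block (replicate block), hippocampal Timp1 was -0.25 in HS and -0.38 in HS+NBQX against noHS, and apart from Serpina3n in cortex the block changed no call of the members. The numbers did not pair the libraries. Of the correlations between the tissues of a pup, those with litter means taken off and without the pup of the high cortical library were chosen after seeing the data. Taking all probe sets of a gene was not run, since probe sets could not be matched to genes. With 4 to 6 pups per group, the number of arrays limits the precision at single times, and dim probe sets such as Serpina3n are below what these arrays resolve.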
